A study of Homo sapiens with 24 samples.

Results

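Aminoacyl-tRNA synthetases are the enzymes that join each amino acid to its transfer RNA. The 37 synthetase genes described here were taken by the older gene symbols used in the deposited tables and divided by name into 21 cytosolic genes and 16 mitochondrial genes, whose symbols end in ARS2. They are 37 of 22227 genes listed in the first experiment and of 23028 in the second, and all 37 passed the filters on low values in both. The list does not cover every mitochondrial synthetase, and a synthetase outside it is not analysed here. GARS and KARS, counted with the cytosolic set, each encode a cytosolic and a mitochondrial form of the enzyme.

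All libraries came from LNCaP, a human prostate cancer cell line that depends on androgen and carries an androgen receptor with a mutated ligand-binding domain. Every group had first been held for 3 days in medium without phenol red and with serum stripped of steroids by charcoal. In the ligand experiment, untransfected cells received vehicle, 10 nM of the androgen dihydrotestosterone (DHT) for 4 h or 24 h, or 10 μM of the androgen receptor antagonist enzalutamide (Enz) for 4 h or 24 h, with n = 2 in each of 5 groups. No treatment time was given for vehicle, so the same vehicle served both times. In the siRNA experiment, cells carried either non-targeting siRNA (siControl) or siRNA against the transcription factor GATA2 (siGATA2), and from 72 h after transfection received vehicle or 25 μM Enz for 24 h, with n = 3 in each of 4 groups. The dose and the transfection therefore both differ between the experiments, and a single cell line was used.

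Most amino acids have a synthetase of their own, while EPRS joins both glutamate and proline, and for most amino acids a separate nuclear gene encodes the enzyme that is imported into mitochondria. In the cytosol, EPRS, IARS, LARS, MARS, QARS, RARS, KARS and DARS join the scaffold proteins AIMP1, AIMP2 and EEF1E1 in the multisynthetase complex, while the other cytosolic enzymes work outside it. When amino acids are short or unfolded proteins accumulate, kinases of eIF2α slow translation and raise the transcription factor ATF4, and several cytosolic synthetase genes are known targets of ATF4 through a composite C/EBP-ATF element.

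Promoter stretches with the letters of that element are shown so that their presence can be read beside the values of each gene. A match in these counts is to the looser TGATGNAA given below, and GARS alone of the 7 cytosolic genes with a match lacks TGATGCAA. Of these 7, 7 rose and 0 fell after 24 h of Enz in the ligand experiment. With Enz in siControl cells 6 rose and 0 fell, and IARS did not pass. YARS2, the mitochondrial gene with a match, did not pass in the ligand experiment and fell in siControl cells. Of the 9 cytosolic genes with a window and no match, 3 rose and 4 fell in the first case and 4 rose and 5 fell in the second. The share of all genes was 16.4% up and 17% down in the first case and 17.7% up and 24.4% down in the second, and the difference between genes with and without a match was not tested. RefSeq promoter windows (GRCh38.p14) reach from 250 bases before to 50 bases after the start site and were found for 30 of the 37 genes. DARS, LARS, TARSL2, VARS, YARS, AARS2 and VARS2 were not matched. TGATGCAA, searched on both strands, lies in 6 of 16 cytosolic and 0 of 14 mitochondrial genes with a window, against 1.08% of 27305 genes. The looser TGATGNAA, which includes TGATGCAA, lies in 7 of 16 cytosolic and 1 of 14 mitochondrial genes, against 4.46% of all genes. Each line gives 30 bases on the strand of the gene, 5′ to 3′, with the match in capitals, and TTGCATCA and TTTCATCA are matches read on the opposite strand.
AARS, chr16:70289675-70289704, minus strand: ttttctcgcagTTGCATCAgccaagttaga
CARS, chr11:3057407-3057436, minus strand: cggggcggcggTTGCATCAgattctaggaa
GARS, chr7:30594834-30594863, plus strand: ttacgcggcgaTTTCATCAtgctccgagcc
IARS, chr9:92293692-92293721, minus strand: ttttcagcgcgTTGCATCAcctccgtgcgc
MARS, chr12:57488053-57488082, plus strand: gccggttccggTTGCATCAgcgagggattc
NARS, chr18:57621804-57621833, minus strand: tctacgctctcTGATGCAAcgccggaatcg
TARS, chr5:33440956-33440985, plus strand: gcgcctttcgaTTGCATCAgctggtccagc
YARS2, chr12:32756076-32756105, minus strand: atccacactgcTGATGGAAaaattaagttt

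A match is a description of these letters, not a binding site. In AARS and YARS2 it begins 187 and 197 bases before the start site, and in the other 6 genes its first base lies between position -33 and position 15 relative to the start. SARS, the gene with the largest rise after 24 h of Enz in both experiments, has no match in its window. Its 100 bases before the start site are shown for contrast.
SARS, chr1:109213793-109213892, plus strand: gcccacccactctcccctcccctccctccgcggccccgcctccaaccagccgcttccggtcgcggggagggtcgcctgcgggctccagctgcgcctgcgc

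The 2 sets differed in level in cells that received vehicle. On the RPKM scale (reads scaled by gene length and by mapped reads), which can be compared between genes, the median cytosolic gene was at 60.1 and the median mitochondrial gene at 11.3 in siControl cells with vehicle. AARS was the highest at 160 RPKM ± 2.92 (SD, n = 3) and RARS2 the lowest at 2.59 RPKM ± 0.382. IARS2 stood apart from the rest of its set at 85.0 RPKM ± 2.91, as high as IARS at 84.8 RPKM ± 1.47, whereas TARSL2, a second cytosolic threonyl-tRNA synthetase gene, was at 5.12 RPKM ± 0.360 against 79.6 RPKM ± 2.26 for TARS.

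The labels were checked first. Markers of the LNCaP lineage were high in every library, with sums of 3337 to 5990 CPM (estimated counts scaled by library size) and 610.7 to 1419 RPKM. GATA2 ranged from 77.03 to 86.1 RPKM in siControl cells and from 46.6 to 54.3 RPKM in siGATA2 cells with vehicle, and with Enz from 128 to 132 and from 60.1 to 64.7 RPKM, so silencing was partial, and GATA2 itself was higher with Enz in siControl cells (log2 fold change 0.65). In the ligand experiment GATA2 was lower with Enz, at 223 and 237 CPM in vehicle, 184 and 167 CPM after 4 h and 201 and 203 CPM after 24 h. KLK3, the gene of prostate-specific antigen, fell with Enz at 24 h (log2 fold change -1.22) and rose with DHT (3.04) in the ligand experiment. In the siRNA experiment the mean sum of the LNCaP markers was 1389 RPKM with vehicle and 758.9 RPKM with Enz in siControl cells. In siGATA2 cells it was 651.4 RPKM with vehicle and 619.1 RPKM with Enz, so the Enz label is less clearly checked there. Of 8 markers of other cell types, 6 (PTPRC, PECAM1, DCN, KRT5, TP63 and CHGA) were at or near 0, with at most 0.0295 RPKM, and COL1A1 made up most of the summed level. That sum was 10.0 to 10.98 RPKM in siControl cells with vehicle, 12.4 to 13.6 with Enz, and 13.2 to 16.6 over both siGATA2 groups. In the ligand experiment it was 16.3 to 17.5 CPM after 24 h of DHT and 21.85 to 29.8 CPM elsewhere. The part of these cells in the results was not tested.

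Enz at 24 h in the ligand experiment raised most cytosolic synthetases and lowered part of both sets. Of the 21 cytosolic genes, 12 rose, 5 fell and 4 did not pass the test, and of the 16 mitochondrial genes 1 rose, 5 fell and 10 did not pass (edgeR's quasi-likelihood test, Benjamini-Hochberg adjusted p below 0.05 over all 15555 genes tested, which is what "rose" and "fell" mean throughout). Among all genes tested, 33.4% passed, 16.4% up and 17% down. The groups did not overlap in 32 of the 37 genes, against 67.7% of all genes. The median log2 fold change was 0.34 for the cytosolic genes, -0.08 for the mitochondrial genes and 0.01 for all genes. All values are shares of a library's reads, so a gene's share and its RNA per cell cannot be told apart.

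SARS, the seryl-tRNA synthetase, was at 272 and 266 CPM in the vehicle libraries, at 343 and 349 CPM after 4 h of Enz and at 435 and 447 CPM after 24 h. Its level rose 1.64-fold at 24 h (log2 fold change 0.71 ± 0.03 SE, adjusted p = 1.79e-09, edgeR). GARS, the glycyl-tRNA synthetase of both compartments, went from 367 and 348 CPM to 556 and 561 CPM (0.64 ± 0.04 SE, adjusted p = 1.34e-08, edgeR). In both genes every Enz library lay above every vehicle library. CARS, the cysteinyl-tRNA synthetase, was the only other gene above 1.5-fold (0.62), so that 3 of the 37 rose and 0 fell by that much, against 2.2% and 3.54% of all genes. AARS (0.54), WARS (0.49), MARS (0.41), IARS (0.38) and TARS (0.37) followed, and YARS, NARS, EPRS and LARS rose by 0.35, 0.35, 0.34 and 0.18 on the log2 scale.

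The 5 cytosolic genes that fell included FARSA and FARSB, the α and β subunits of the phenylalanyl-tRNA synthetase, at -0.31 and -0.30. FARSB went from 137 and 128 CPM in vehicle to 109 and 106 CPM. VARS (-0.26), KARS (-0.18) and RARS (-0.15) also fell, so the dual-compartment enzymes GARS and KARS moved in opposite directions. In the mitochondrial set AARS2 (-0.23), LARS2 (-0.23), CARS2 (-0.21), VARS2 (-0.16) and EARS2 (-0.15) fell and RARS2 rose (0.20), but RARS2 was at 18.5 to 21.5 CPM in these libraries and lost its call in 11 of 16 alternative settings. The calls of AARS2 and CARS2 were lost without vehicle replicate 2 or Enz 24 h replicate 1, that of EARS2 without the latter, and that of VARS2 without either Enz 24 h replicate.

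**Figure D1:**
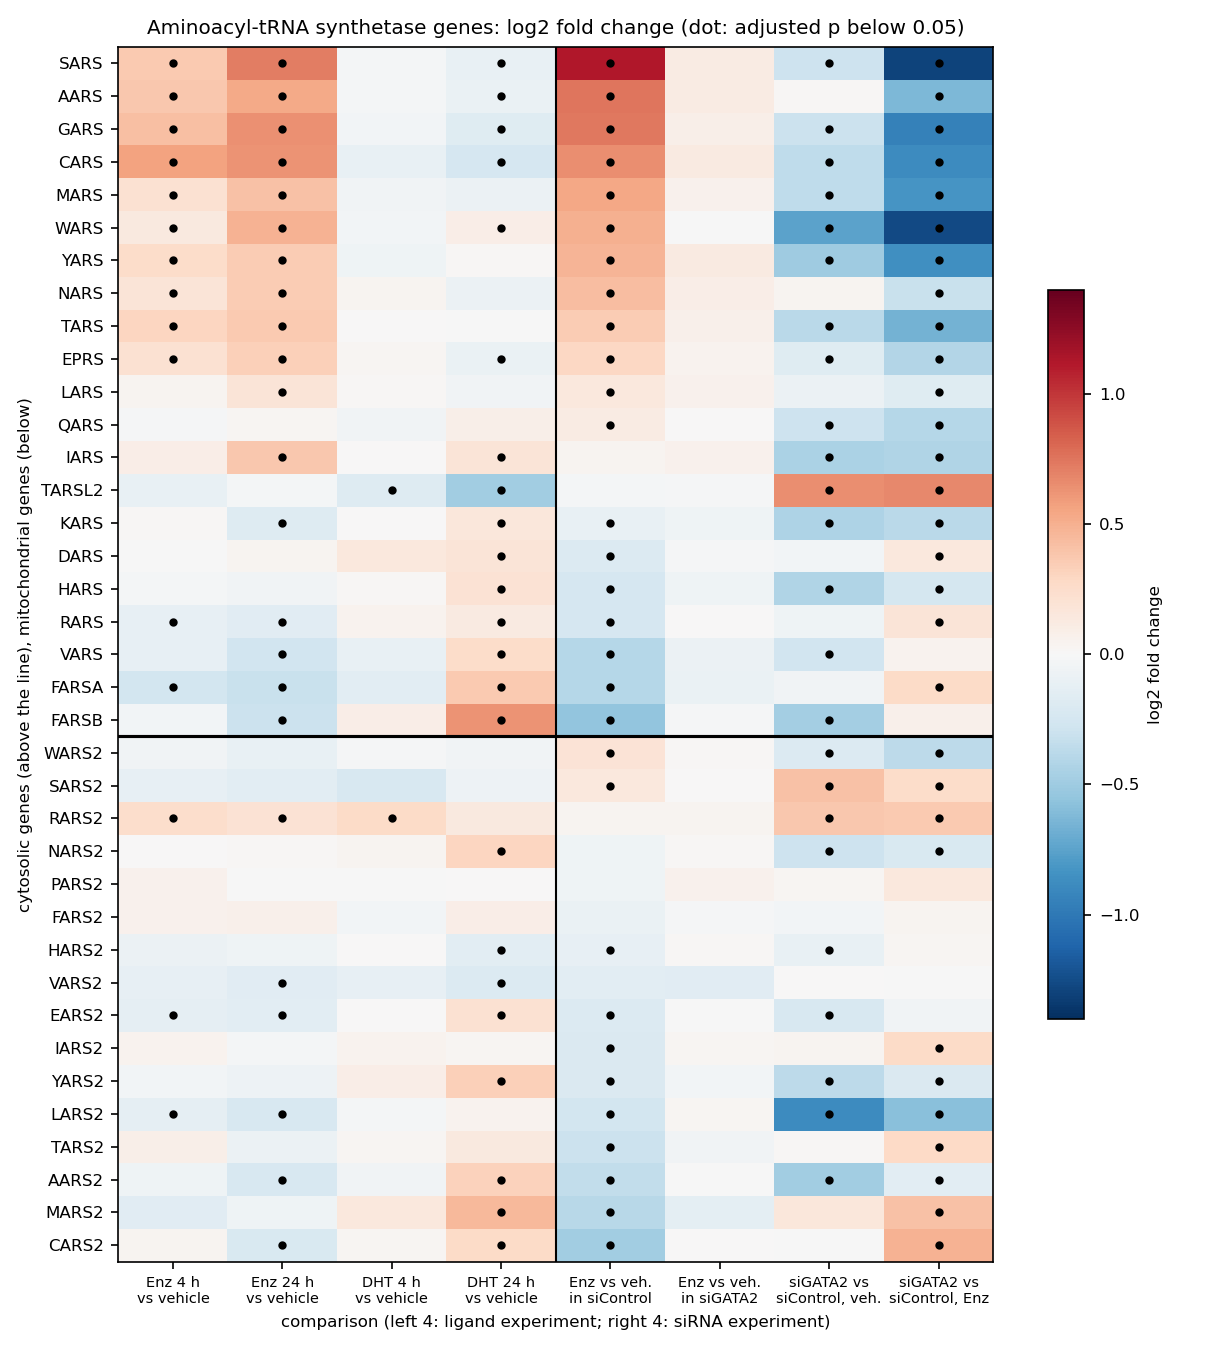
Colour gives the log2 fold change of each of the 37 synthetase genes (rows, cytosolic above the line and mitochondrial below, ordered by the Enz response of siControl cells) in 8 comparisons (columns), and a dot marks an adjusted p below 0.05. The upper cytosolic rows are red in the Enz columns of untransfected and siControl cells, most mitochondrial rows there are pale or blue, and the column for Enz in siGATA2 cells has no dot.

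At 4 h of Enz, 10 cytosolic genes had risen and 2 had fallen, and in the mitochondrial set 1 had risen and 2 had fallen, where 13.6% of all genes tested were called (6.94% up, 6.68% down, edgeR). CARS had the largest rise: it was at 77.2 and 80.6 CPM in vehicle and at 117 and 116 CPM at 4 h, a log2 fold change of 0.56 ± 0.04 SE (adjusted p = 3.11e-06, edgeR). GARS (0.42), AARS (0.38), SARS (0.36), TARS (0.30), YARS (0.26), MARS (0.22) and EPRS (0.21) came next. KARS did not pass (0.01, adjusted p = 0.853, edgeR). FARSA (-0.26), RARS (-0.12), LARS2 (-0.13) and EARS2 (-0.13) fell and RARS2 rose (0.25), and these calls, FARSA excepted, did not hold: RARS, LARS2, EARS2 and RARS2 lost theirs in 9, 9, 10 and 6 of 16 alternative settings, without either vehicle replicate among others.

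The median of the cytosolic genes at 4 h, 0.10 on the log2 scale, was less firm than the calls of its leading genes. It was 0.04 without vehicle replicate 2 and likewise without Enz 4 h replicate 2, and the number of calls in both sets fell from 15 to 9 without vehicle replicate 2. The column headers carry the prefixes ZC1 to ZC3, and both Enz 4 h libraries have ZC2 and both Enz 24 h libraries ZC3. Each prefix has a vehicle column numbered replicate 1, and ZC1 also has the vehicle column numbered replicate 2. What the prefixes stand for is not given in the labels. Against the vehicle column of the same prefix, all 15 calls at 4 h and all 23 at 24 h kept their sign. The cytosolic median was then 0.03 at 4 h and 0.29 at 24 h. These vehicle columns also make up vehicle replicate 1 of the main test, so the kept signs are no independent check.

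Between the Enz times, tested directly, 10 cytosolic genes were higher at 24 h than at 4 h and 3 were lower, with 0 higher and 1 lower in the mitochondrial set and 24.6% of all genes called (edgeR). WARS, the tryptophanyl-tRNA synthetase, was at 163 and 162 CPM at 4 h and at 206 and 208 CPM at 24 h (log2 difference 0.35 ± 0.03 SE, adjusted p = 2.55e-06, edgeR). SARS (0.35), IARS (0.28) and GARS (0.22) were also higher at 24 h. CARS, which had the largest early rise, showed no further difference that passed the test (0.06, adjusted p = 0.273, edgeR). FARSB (-0.27), KARS (-0.20), VARS (-0.14) and CARS2 (-0.25) were lower at 24 h. YARS passed at 0.10 but lost its call in 14 of 16 alternative settings. The calls of EPRS, VARS, LARS, NARS and CARS2 were lost in 3, 3, 2, 1 and 1 settings, each of which left out an Enz library.

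Since the times carry different header prefixes, only the differences from the vehicle column of each prefix can be set side by side. These gave all 14 calls the same sign, with FARSB at -0.14. Without either Enz 24 h replicate, the number of calls was 9.

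**Figure D2:**
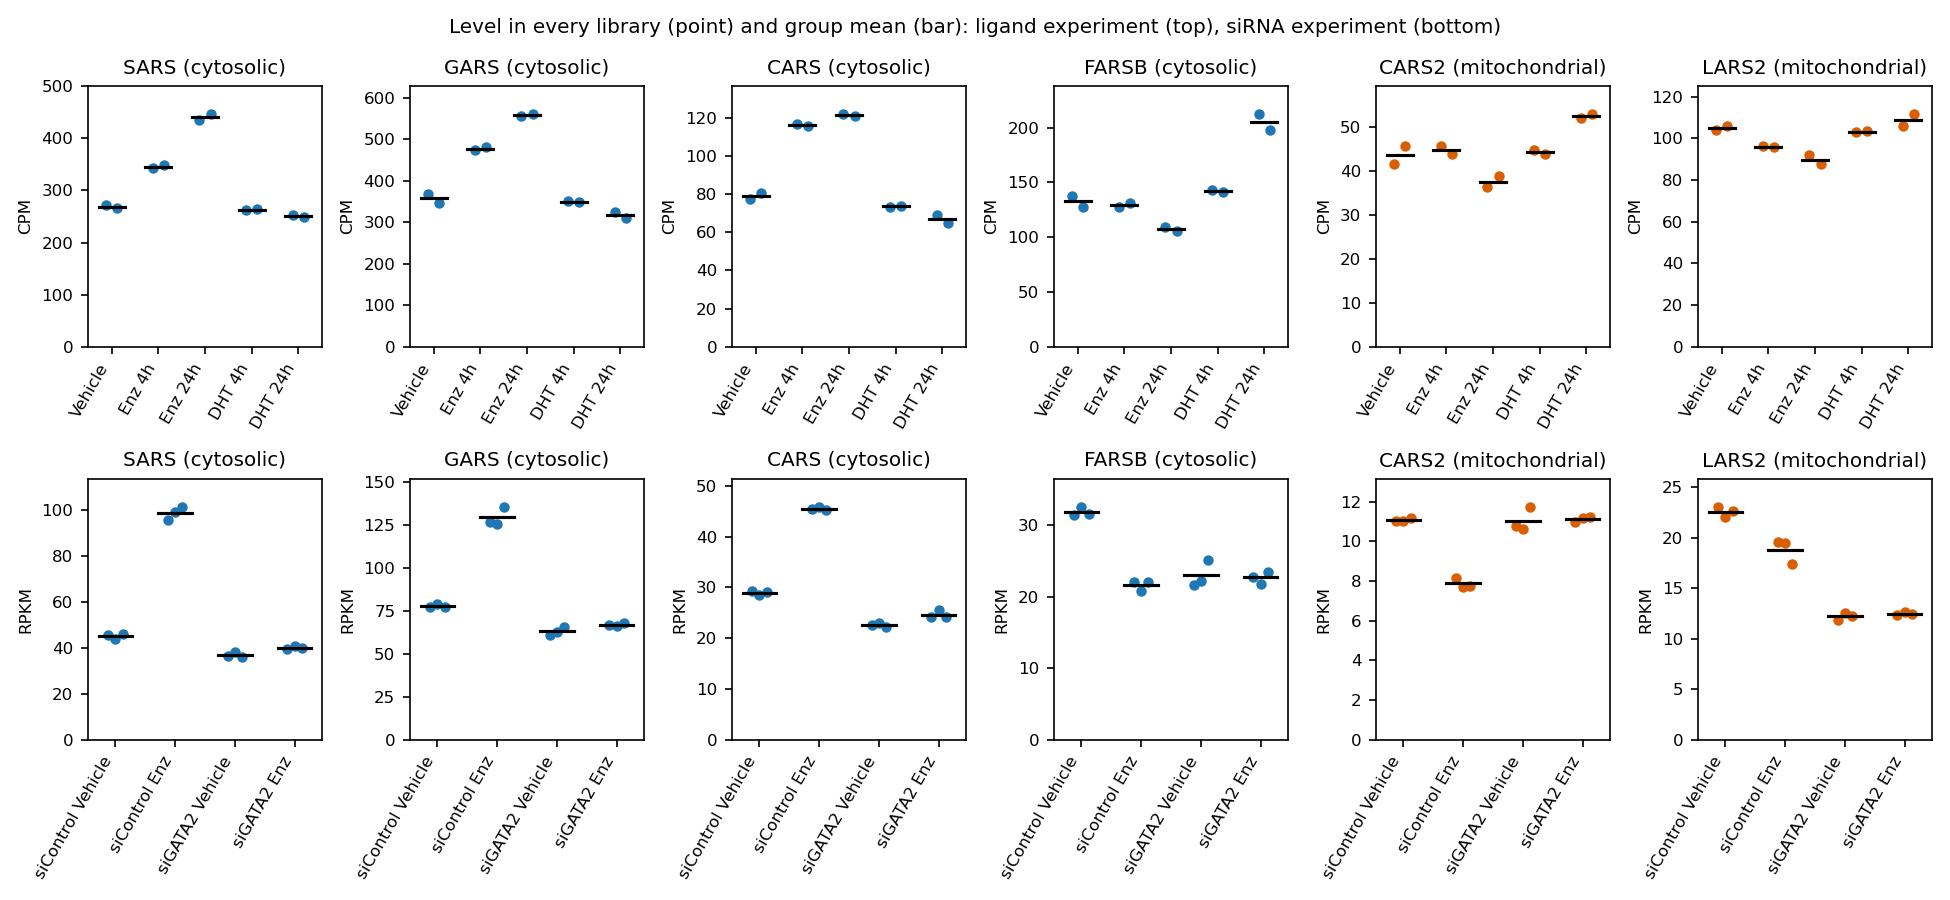
Level of 4 cytosolic (blue) and 2 mitochondrial (orange) genes in every library (points) with the group mean (bar), in CPM for the ligand experiment (top row) and RPKM for the siRNA experiment (bottom row); all axes start at 0. SARS, GARS and CARS are highest with Enz in untransfected and siControl cells, FARSB is highest after 24 h of DHT, and CARS2 is lowest with Enz in siControl cells.

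At 4 h of DHT, TARSL2 fell (-0.18) and RARS2 rose (0.27), and the other 35 genes did not pass. These are 2 calls in 37 genes, near the share of all genes, of which 6.77% were called (4.66% up, 2.11% down, edgeR). The groups did not overlap in 21 of the 37 genes, against 52.3% of all genes, and leaving out single libraries gave between 0 and 4 calls. RARS2, the mitochondrial arginyl-tRNA synthetase, was at 18.6 and 18.5 CPM in vehicle and at 21.3 and 23.4 CPM with DHT, and both calls were lost without either vehicle replicate or without DHT 4 h replicate 2.

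At 24 h, DHT changed both sets in both directions. In the cytosolic set 9 genes rose and 6 fell and in the mitochondrial set 6 rose and 2 fell, where 50% of all genes passed (26.9% up, 23.2% down, edgeR). Scaled by library size alone, the cytosolic split turned to 6 up and 9 down, and the mitochondrial split stayed at 6 and 2. The groups did not overlap in 30 of the 37 genes, against 73.4% of all genes. FARSB was at 137 and 128 CPM in vehicle and at 212 and 198 CPM with DHT, a 1.55-fold rise (log2 fold change 0.63 ± 0.04 SE, adjusted p = 9.3e-08, edgeR). It was the only gene of the 37 above 1.5-fold, where 5.9% of all genes rose and 7.62% fell by that much. Its partner subunit FARSA rose by 0.37, and VARS (0.26), HARS (0.20), IARS (0.19), DARS (0.18), KARS (0.16) and RARS (0.13) rose less. WARS passed at 0.09, and 11 of 16 alternative settings took its call away.

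In the mitochondrial set, MARS2 (0.45), YARS2 (0.34), AARS2 (0.32), NARS2 (0.30), CARS2 (0.27) and EARS2 (0.21) rose with 24 h of DHT, and VARS2 (-0.19) and HARS2 (-0.15) fell. CARS2, the mitochondrial cysteinyl-tRNA synthetase, went from 41.7 and 45.7 CPM to 52.0 and 53.1 CPM. TARSL2 had the largest fall, from 67.1 and 66.3 CPM to 48.1 and 46.8 CPM (-0.49 ± 0.04 SE, adjusted p = 6.49e-07, edgeR), while TARS was at 0.00 (adjusted p = 0.915, edgeR). CARS (-0.23), GARS (-0.17), SARS (-0.10), AARS (-0.09) and EPRS (-0.09) fell by small amounts. The calls of SARS and EPRS were lost without vehicle replicate 1 or DHT 24 h replicate 2, that of AARS without vehicle replicate 1, and those of DARS and RARS without vehicle replicate 2 or DHT 24 h replicate 1 or with library size alone.

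HARS and HARS2, the cytosolic and mitochondrial histidyl-tRNA synthetases, are neighbours that start on opposite strands. HARS rose and HARS2 fell with 24 h of DHT, from 98.6 and 97.2 to 113 and 112 CPM and from 76.9 and 76.8 to 70.0 and 68.9 CPM. The 84 bases between their start sites, printed on the plus strand of GRCh38.p14, are shown because both genes start there.
HARS and HARS2, chr5:140691371-140691454, plus strand: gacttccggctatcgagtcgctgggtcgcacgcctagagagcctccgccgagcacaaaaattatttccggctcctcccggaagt

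Enz and DHT share their vehicle libraries, so the ligands were compared with each other directly. At 24 h, 13 cytosolic genes were higher with Enz than with DHT and 7 lower, and in the mitochondrial set 0 were higher and 8 lower, with 64.9% of all genes called (33.6% up, 31.3% down, edgeR). QARS was the only cytosolic gene that did not pass (-0.06, adjusted p = 0.149, edgeR). The higher genes were led by CARS (0.85), SARS (0.81), GARS (0.81) and AARS (0.63), and all 4 exceeded 1.5-fold (13.4% of all genes). FARSB was 1.91-fold lower with Enz than with DHT (log2 difference -0.93 ± 0.04 SE, adjusted p = 7.74e-10, edgeR), and FARSA (-0.68), AARS2 (-0.55), VARS (-0.52), MARS2 (-0.51) and CARS2 (-0.48) were lower as well. Of these, FARSB and FARSA passed 1.5-fold (11% of all genes). The call of DARS (-0.14) was lost without either Enz 24 h replicate or DHT 24 h replicate 1, or with library size alone. The median was 0.33 for the cytosolic, -0.14 for the mitochondrial and 0.03 for all genes. Both Enz 24 h libraries and DHT 24 h replicate 2 carry the header prefix ZC3, and DHT 24 h replicate 1 carries ZC2. Ligand and prefix are therefore partly mixed at 24 h. Against DHT 24 h replicate 2 alone, all 28 calls kept their sign, with medians of 0.34 and -0.15 for the 2 sets. At 4 h, 10 cytosolic genes were higher and 1 lower, 0 mitochondrial genes were higher and 2 lower (MARS2 at -0.30 and EARS2 at -0.14), and 15.8% of all genes were called (7.28% up, 8.49% down, edgeR), with CARS again first (0.66). Both Enz 4 h libraries carry the header prefix ZC2 and both DHT 4 h libraries ZC1, so ligand and prefix cannot be told apart in this contrast. Taken through the vehicle columns of each prefix, all 13 calls kept their sign and the cytosolic median was 0.05, against 0.09 in the direct contrast. EARS2, NARS (0.14), WARS (0.17) and RARS (-0.16) lost their calls in 3, 5, 2 and 1 of 16 alternative settings, all of which left out a library.

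In siControl cells, 25 μM Enz for 24 h raised 12 cytosolic genes, lowered 7 and left 2 that did not pass, and it raised 2 and lowered 9 of the mitochondrial genes (limma on log2(RPKM + 0.1), adjusted over 20369 genes). Among all genes tested, 42.1% passed, 17.7% up and 24.4% down. SARS was at 45.5, 43.9 and 46.1 RPKM with vehicle and at 95.8, 98.97 and 101 RPKM with Enz, a 2.18-fold rise (log2 fold change 1.13 ± 0.03 SE, adjusted p = 6.8e-09, limma). AARS went from 157 to 163 RPKM up to 265 to 271 RPKM (0.75), GARS from 77.3 to 78.9 RPKM up to 126 to 136 RPKM (0.73), and CARS rose by 0.65. These 4 exceeded 1.5-fold and 0 genes fell by that much, against 2.55% and 5.01% of all genes. MARS (0.54), WARS (0.50), YARS (0.48) and NARS (0.44) completed the 8 leading genes, and TARS, EPRS, LARS and QARS rose by 0.35, 0.29, 0.15 and 0.12. The groups did not overlap in 33 of the 37 genes, against 50.4% of all genes.

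FARSB had the largest fall, from 31.4, 32.6 and 31.6 RPKM to 22.1, 20.7 and 22.1 RPKM (-0.56 ± 0.05 SE, adjusted p = 1.48e-05, limma). FARSA (-0.40), VARS (-0.40), RARS (-0.24), HARS (-0.24), DARS (-0.20) and KARS (-0.11) also fell. In the mitochondrial set CARS2 led, at 11.01, 11.01 and 11.2 RPKM with vehicle and 8.16, 7.69 and 7.77 RPKM with Enz (-0.49 ± 0.04 SE, adjusted p = 3.96e-06, limma), before MARS2 (-0.39), AARS2 (-0.35), TARS2 (-0.30), LARS2 (-0.26), YARS2 (-0.20), IARS2 (-0.20) and EARS2 (-0.19). WARS2 (0.19) and SARS2 (0.15) rose against the majority of their set. The median was 0.15 for the cytosolic, -0.17 for the mitochondrial and -0.02 for all genes. The calls of KARS and HARS2 (-0.11 each) were lost when each library was centred on its median gene, and that of HARS2 also without siControl vehicle replicate 1 or 2 or siControl Enz replicate 3.

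The Enz responses of the 2 experiments share no library. Of the 12 cytosolic genes that rose in each, 11 were the same (91.7% of either list); IARS rose in the ligand experiment alone and QARS in siControl cells alone. All 5 cytosolic genes that fell in the ligand experiment were among the 7 that fell in siControl cells (71.4%), and 4 of the 5 mitochondrial genes that fell in the ligand experiment (80%) were among the 9 (44.4%). No synthetase gene was called in opposite directions. Of all genes, 16.4% rose and 17% fell in the ligand experiment, and 17.7% rose and 24.4% fell in siControl cells. The overlap over all genes was not computed. Across the 37 genes, Pearson's r of the log2 fold changes was 0.917 and Spearman's rho 0.858, a description over genes that are not independent replicates. IARS, the isoleucyl-tRNA synthetase, stood apart: it was at 490 and 454 CPM in vehicle and at 607 and 617 CPM after 24 h of 10 μM Enz, but at 83.5 to 86.4 RPKM with vehicle and 85.3 to 89.8 RPKM with 25 μM Enz in siControl cells (0.04, adjusted p = 0.491, limma).

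**Figure D3:**
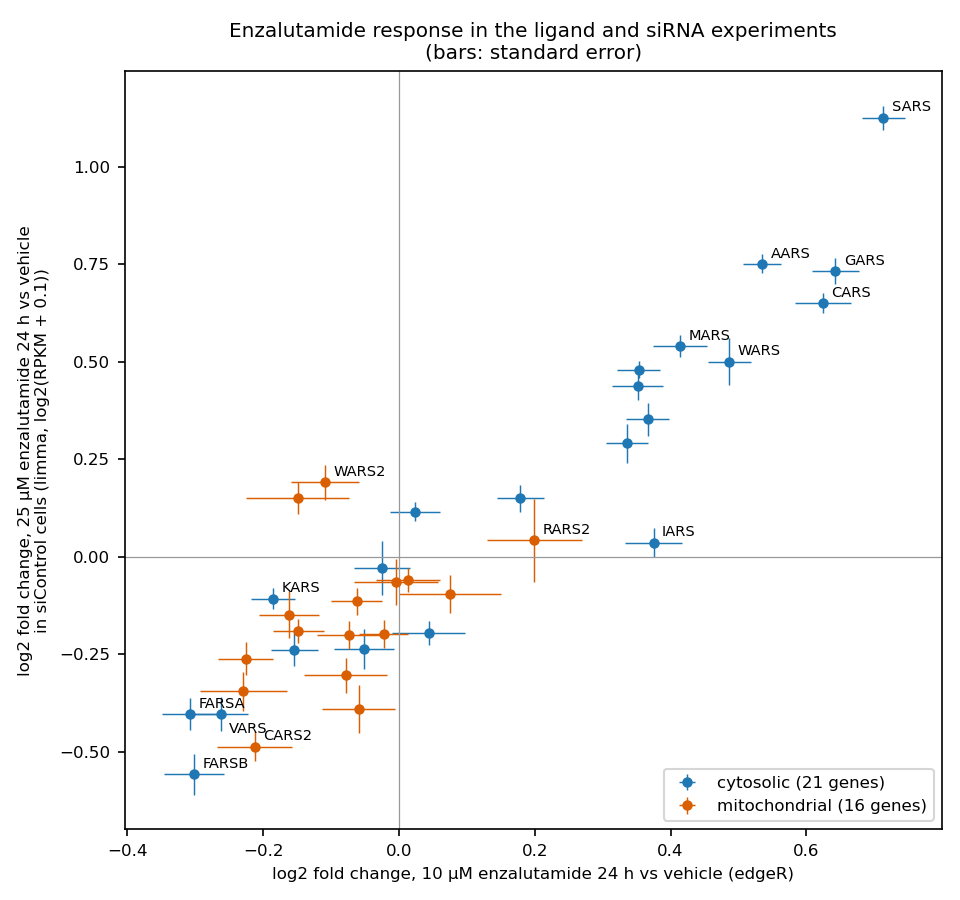
Each point is 1 synthetase gene, with its log2 fold change after 24 h of 10 μM Enz in untransfected cells (x axis, edgeR) and of 25 μM Enz in siControl cells (y axis, limma), and bars of 1 standard error. SARS is farthest to the upper right, FARSB, CARS2, FARSA and VARS lie at the lower left, and IARS lies at 0.38 on the x axis and 0.04 on the y axis.

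After GATA2 silencing, no synthetase gene passed the test for Enz against vehicle (0 of 37, limma), where 0.412% of all genes passed (0.221% up, 0.191% down). The groups did not overlap in 9 genes, all cytosolic, against 16.3% of all genes. An unadjusted p below 0.05 (limma) was reached by 8 of the 37 genes, 7 of them cytosolic, against 2199 of all 20369 genes. YARS came nearest (log2 fold change 0.12 ± 0.02 SE, adjusted p = 0.0524, limma), and it was the only synthetase called when a pseudocount of 1, no filter or median centring was used. CARS was at 0.12 (adjusted p = 0.0775), SARS at 0.12 (0.179) and AARS at 0.11 (0.109, all limma). SARS was at 36.5, 38.3 and 36.1 RPKM in siGATA2 cells with vehicle and at 39.4, 40.8 and 40.1 RPKM with Enz, all below the siControl vehicle libraries.

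The change in the Enz response was tested as an interaction. The response was lower in siGATA2 than in siControl cells for 11 cytosolic and 0 mitochondrial genes and higher for 5 cytosolic and 7 mitochondrial genes, with 25.8% of all genes called (10.8% lower, 15% higher, limma). SARS, GARS and AARS differed by over 1.5-fold, where 2.17% of all genes were lower and 3.55% higher by that much. SARS had the largest difference (-1.01 ± 0.04 SE on the log2 scale, adjusted p = 8.14e-07, limma), followed by GARS (-0.65), AARS (-0.64), CARS (-0.53), WARS (-0.51), MARS (-0.48), YARS (-0.36) and NARS (-0.34). In the other direction, FARSB (0.54), CARS2 (0.50), AARS2 (0.34), VARS (0.32), FARSA (0.31) and LARS2 (0.29) fell with Enz in siControl cells but did not pass in siGATA2 cells. KARS did not pass the test (0.05 ± 0.04 SE, adjusted p = 0.37, limma). The calls of QARS, EPRS and YARS2 were lost in 10, 7 and 14 of 19 alternative settings, among them without siGATA2 Enz replicate 1 or 2 for QARS and EPRS.

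**Figure D4:**
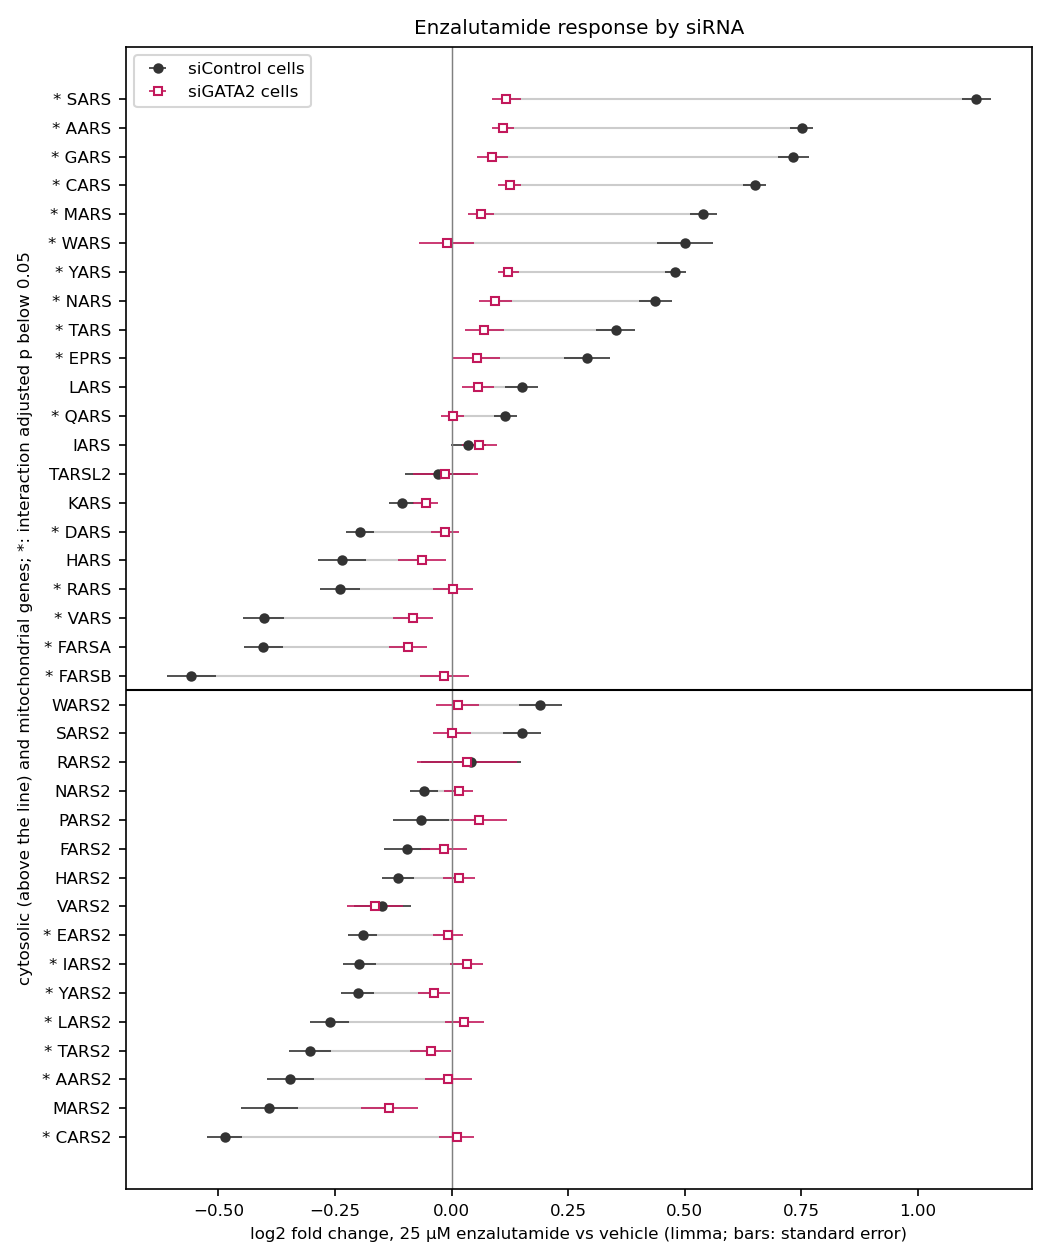
Log2 fold change of 25 μM Enz against vehicle in siControl cells (filled circles) and siGATA2 cells (open squares), with bars of 1 standard error, for the 21 cytosolic genes (above the line) and 16 mitochondrial genes (below); a star marks an interaction with an adjusted p below 0.05. The squares lie between -0.16 and 0.12 and the circles between -0.56 and 1.13.

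GATA2 silencing without Enz lowered 14 cytosolic genes and raised 1, and it lowered 7 and raised 2 of the mitochondrial genes, with 55.6% of all genes called (31.4% down, 24.2% up, limma). With each library centred on its median gene, 13 cytosolic genes fell and 3 rose and 6 mitochondrial genes fell and 4 rose. The share of cytosolic genes that fell was thus above that of all genes and their median was -0.29, against -0.02 for the mitochondrial and -0.03 for all genes. LARS2, the mitochondrial leucyl-tRNA synthetase, fell most, from 23.0, 22.0 and 22.6 RPKM to 11.9, 12.5 and 12.2 RPKM (log2 fold change -0.88 ± 0.04 SE, adjusted p = 3.38e-08, limma). WARS fell by 0.75, from 31.3 in each library to between 17.2 and 20.6 RPKM, and YARS (-0.50), FARSB (-0.47), IARS (-0.45), KARS (-0.43), HARS (-0.42), TARS (-0.38) and CARS (-0.36) fell too. GARS was at -0.30.

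TARSL2 moved against the cytosolic set, from 4.82, 5.52 and 5.02 RPKM to 7.75, 8.03 and 8.502 RPKM (0.65 ± 0.07 SE, adjusted p = 1.47e-05, limma). In the mitochondrial set AARS2 (-0.49), YARS2 (-0.37), NARS2 (-0.29), EARS2 (-0.23), WARS2 (-0.19) and HARS2 (-0.10) fell, while SARS2 (0.41) and RARS2 (0.38) rose. AARS (0.01), DARS (-0.03) and NARS (0.03) did not pass. TARSL2 was the only gene to rise by 1.5-fold and WARS and LARS2 the only ones to fall by it, against 6.57% and 11.8% of all genes. HARS2 lost its call in 6 of 19 alternative settings, and EPRS (-0.17) without siControl vehicle replicate 2 or siGATA2 vehicle replicate 1 or with median centring.

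Under Enz, siGATA2 cells were lower than siControl cells in 15 cytosolic and 5 mitochondrial genes and higher in 4 and 6, with 54.5% of all genes called (28.1% lower, 26.3% higher, limma). SARS was 2.46-fold lower (log2 difference -1.298 ± 0.03 SE, adjusted p = 3.07e-10, limma) and WARS 2.40-fold lower (-1.26 ± 0.06 SE, adjusted p = 3.08e-08, limma). GARS (-0.95), CARS (-0.88), YARS (-0.86), MARS (-0.83), TARS (-0.66) and AARS (-0.63) also exceeded 1.5-fold. LARS2 (-0.59) was the only mitochondrial gene that did, where 10.9% of all genes were lower and 6.88% higher by that much. TARSL2 (0.67), FARSA (0.26), RARS (0.18) and DARS (0.15) were higher, as were CARS2 (0.49), MARS2 (0.41), RARS2 (0.37), TARS2 (0.28), IARS2 (0.27) and SARS2 (0.26). KARS was at -0.38, and the call of AARS2 (-0.15) was lost in 5 of 19 alternative settings.

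The silencing comparisons with and without Enz share no library. Of the 21 synthetase genes lower without Enz and the 20 lower with Enz, 17 were in both lists (81.0% and 85.0%), and all 3 that were higher without Enz were among the 10 higher with Enz (30%). Of all genes, 31.4% were lower without Enz and 28.1% with Enz, and 24.2% and 26.3% were higher. The overlap over all genes was not computed, so this overlap is not read as particular to the synthetases. The silencing and Enz comparisons of siControl cells do share libraries, so their lists were not overlapped.

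**Figure D5:**
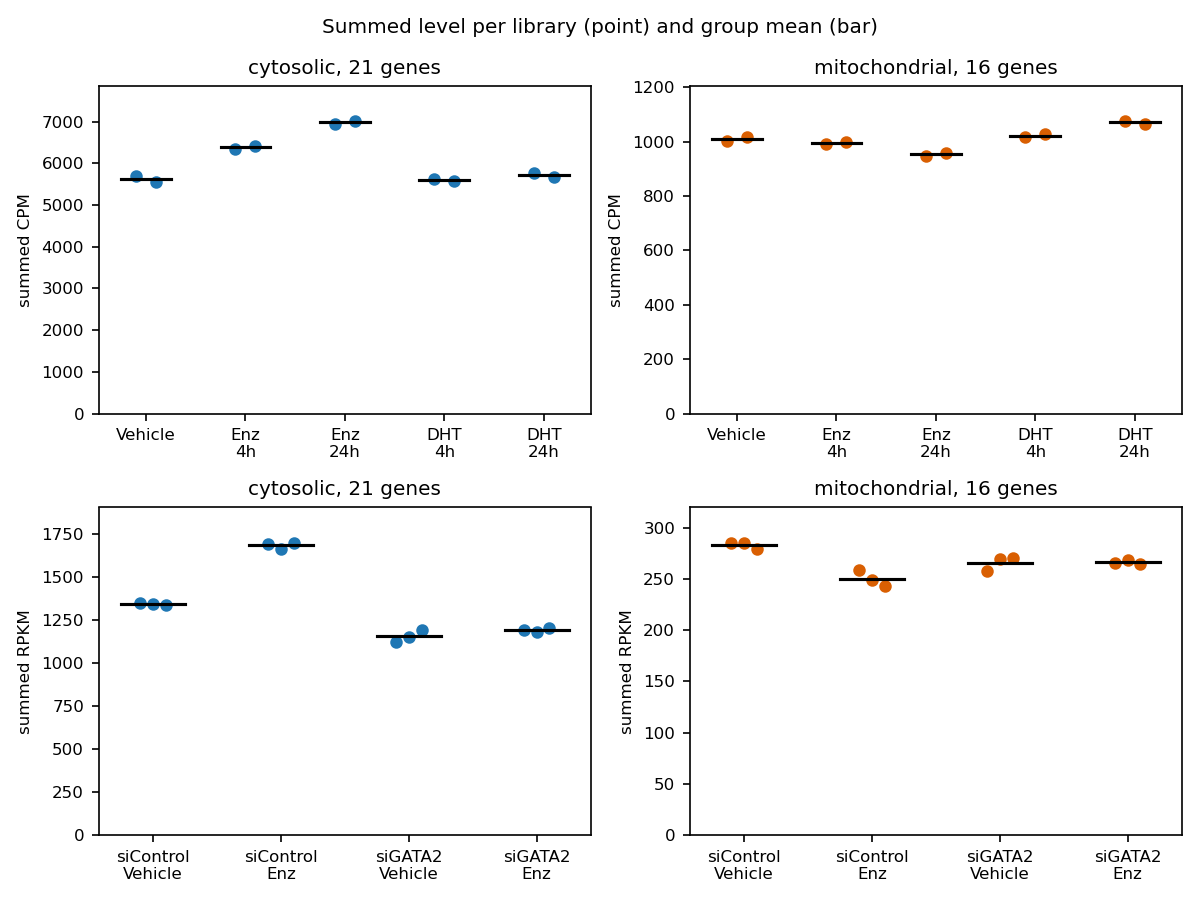
Summed level of the 21 cytosolic genes (left, blue) and the 16 mitochondrial genes (right, orange) in every library (points) with the group mean (bar), in CPM for the ligand experiment (top) and RPKM for the siRNA experiment (bottom), on axes from 0. Cytosolic sums with Enz lie above those of all other groups in untransfected and siControl cells. The mean mitochondrial sum is lowest after 24 h of Enz in the ligand experiment and with Enz in siControl cells in the siRNA experiment.

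The summed level of each set puts these changes on 1 scale, weighted toward the abundant genes. In CPM the cytosolic sum was 5546 to 5705 in vehicle, 6346 to 6408 after 4 h of Enz and 6952 to 7010 after 24 h, or 113.3% and 124.1% of vehicle. The mitochondrial sum was 1003 to 1019 in vehicle and 948 to 959 after 24 h of Enz, or 94.3%. With 24 h of DHT the sums were 101.7% and 106.0% of vehicle.

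In siControl cells Enz took the cytosolic sum to 125.4% and the mitochondrial sum to 88.3% of vehicle, without overlap between the groups. In siGATA2 cells the same figures were 103.2% and 100.2%. Silencing without Enz left the cytosolic sum at 85.9% and the mitochondrial sum at 93.8% of siControl cells. Silencing under Enz left the cytosolic sum at 70.7% and the mitochondrial sum at 106.4% of siControl cells.

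Within the cytosolic set, the 8 enzymes of the multisynthetase complex had a median log2 fold change of 0.11 after 24 h of Enz in the ligand experiment and the 13 others 0.35, and in siControl cells the medians were 0.08 and 0.44. Of the 8, 4 rose and 2 fell in the first case and 4 rose and 3 fell in the second. Of the 13, 8 rose and 3 fell and then 8 rose and 4 fell, so the counts were closer than the medians, and the difference was not tested. Shares of all genes were 16.4% up and 17% down, then 17.7% up and 24.4% down. Of the scaffold genes AIMP1, AIMP2 and EEF1E1, none of the 3 passed after 24 h of Enz in the ligand experiment, and in siControl cells AIMP2 alone rose (0.35 ± 0.04 SE, adjusted p = 8.37e-05, limma). With siGATA2 all 3 were lower, in vehicle (EEF1E1 at -0.33, AIMP2 at -0.27, AIMP1 at -0.15) and under Enz (AIMP2 at -0.59, EEF1E1 at -0.38, AIMP1 at -0.15).

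Grouped by the fold of the catalytic domain instead, 6 of 9 cytosolic class I genes and 5 of 11 class II genes rose after 24 h of Enz in the ligand experiment, with medians of 0.35 and 0.04; EPRS holds domains of both classes. In the mitochondrial set 4 of 9 class I and 1 of 7 class II genes fell. Of all genes 16.4% rose and 17% fell in that comparison, and the classes were not tested against each other.

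Other genes of translation were listed beside the synthetases, and their counts are read against the share of all genes called, which was 16.4% up and 17% down after 24 h of Enz in the ligand experiment, 17.7% up and 24.4% down with Enz in siControl cells, 26.9% up and 23.2% down after 24 h of DHT, and 28.1% lower with siGATA2 under Enz. Of 6 cytosolic elongation factor genes, 2 rose after 24 h of Enz in the ligand experiment and 6 in siControl cells, with EEF2 (0.35), EEF1D (0.30) and EEF1G (0.30) first. With siGATA2 under Enz 5 of the 6 were lower. With siGATA2 in vehicle 5 were also lower and 1 was higher, where 31.4% of all genes were lower and 24.2% higher. Of 9 mitochondrial translation factor genes, 0 rose and 1 fell (TSFM at -0.18) after 24 h of Enz in the ligand experiment, and 0 rose and 5 fell in siControl cells, led by TSFM (-0.39). With 24 h of DHT, 4 of the 9 rose and 0 fell, led by GFM1 (0.47), and 3 of the 6 cytosolic factors fell, led by EEF1A2 (-0.23). Of 4 tested genes that help charge mitochondrial tRNAs indirectly or formylate them, 3 fell in siControl cells with Enz (GATB at -0.20, GATC at -0.16, MTFMT at -0.15).

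The integrated stress response list, 10 genes that include ATF4, was set beside the cytosolic synthetases. The list was chosen with earlier results of these data known, so a shared direction is a description and no independent check. All 10 rose at 4 h and at 24 h of Enz and with Enz in siControl cells, with medians of 0.90, 0.82 and 1.39. Of all genes tested, 6.94%, 16.4% and 17.7% rose in these comparisons. Of the 21 cytosolic synthetases, 10, 12 and 12 rose and 2, 5 and 7 fell. CHAC1, which degrades glutathione, had the largest rise each time (1.47, 1.47 and 2.87), before DDIT3 (1.35, 1.37 and 2.25). With 24 h of DHT 7 of the 10 fell and 1 rose, where 6 cytosolic synthetases fell and 9 rose. Shares of all genes were 23.2% down and 26.9% up. With siGATA2 in vehicle 5 of the 10 were lower and 4 higher, where 14 cytosolic synthetases were lower and 1 higher. Of all genes, 31.4% were lower and 24.2% higher. In siGATA2 cells Enz raised 1 of the 10, ASNS (0.34), and the interaction was called lower for all 10. Under Enz 9 of the 10 were lower with siGATA2, with CHAC1 at -4.29 on the log2 scale. The shares of all genes were 0.221% up, 10.8% lower and 28.1% lower, in that order. ATF4 itself, named after its values were seen, was at 0.55 and 0.76 after 4 h and 24 h of Enz, 1.20 in siControl cells and 0.15 in siGATA2 cells (adjusted p = 0.137, limma). The eIF2α kinase genes moved less: EIF2AK3 (PERK) was at 0.39 after 4 h and 0.16 after 24 h of Enz, and at 0.15 in siControl cells.

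FARS2 and PARS2, the mitochondrial phenylalanyl- and prolyl-tRNA synthetases, were called in none of the 12 comparisons, while the other 35 genes were called in at least 1. Single comparisons called 0.412% to 64.9% of all genes. The share of all genes called in at least 1 was not computed, so these counts are not read as particular to the synthetases. FARS2 ranged from 11.6 to 13.8 CPM and from 7.34 to 8.53 RPKM over all libraries, and PARS2 from 13.9 to 15.2 CPM and from 5.96 to 7.62 RPKM. They are among the lower genes in level, where a change has to be larger to pass: their standard errors were 0.05 to 0.08 on the log2 scale in the comparisons of 2 groups, against 0.03 for SARS.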

How the data were processed

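RNA-seq libraries of poly(A) RNA from LNCaP cells were made with a strand-directional kit. Per the submitters' processing notes and the methods, the authors aligned reads with TopHat2 2.0 to hg19 and quantified genes in Partek; whether counting used strand is not given in the sources used here. For the ligand experiment they deposited estimated counts per gene without normalization, 38894876 to 59985287 per library. For the siRNA experiment they deposited RPKM values, scaled by gene length and mapped reads, summing to 301300 to 317933 per library, although the files are described as counts.

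The vehicle table has 4 columns, of which 3 carry replicate number 1. A chi-square test of the counts, averaged over genes, gave at most 1.56 between these and at least 3.56 between any of them and replicate 2, so they were summed and vehicle was taken as n = 2. The labels give 4 vehicle samples and do not say whether the summed columns are runs of the same sample. Estimated counts were rounded and tested with edgeR 4.0.16 (quasi-likelihood, TMM factors, filterByExpr, 10 libraries in a single model). Synthetase genes had 492 to 47949 counts per library. The deposited RPKM were put on a log scale as log2(RPKM + 0.1), genes at 0 in more than 9 of the 12 libraries were dropped, and limma 3.58.1 (trend option) fitted all 12 libraries together. Fold changes on that scale understate changes of low genes. Precision there was taken from the spread within groups of 3 libraries, pooled over all 12 and drawn toward the trend over genes. P-values were Benjamini-Hochberg adjusted over all genes tested, with calls at an adjusted p below 0.05. The steps were tested on simulated data.

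Labels number the replicates, and per the methods they are biological. The genes and the other lists (complex, elongation, mitochondrial translation, stress response) were chosen with earlier results of these data known. By rule the text names up to 8 called members per direction and set with the largest changes, GARS, KARS, called members against their set, and up to 3 called members of other lists. Other settings were RLE size factors, library size alone, no filter, DESeq2 1.42.0, other pseudocounts, median centring, no variance trend, a replicate block and leaving out each library; the comparison within header prefixes was chosen after seeing the data. Unused columns of values number 0. R 4.3.3, Python 3.11.15, pandas 2.3.3 and matplotlib 3.10.9 were used.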

Additional observations from a re-analysis of the deposited data

Results flagged for a closer look

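The response to 25 μM Enz differed between siGATA2 and siControl cells by the interaction test (limma) for 23 genes. The difference, siGATA2 minus siControl on the log2 scale, was negative for 11 cytosolic genes: SARS -1.01, GARS -0.65, AARS -0.64, CARS -0.53, WARS -0.51, MARS -0.48, YARS -0.36, NARS -0.34, TARS -0.28, EPRS -0.24 and QARS -0.11. It was positive for the cytosolic genes FARSB 0.54, VARS 0.32, FARSA 0.31, RARS 0.24 and DARS 0.18, and for the mitochondrial genes CARS2 0.50, AARS2 0.34, LARS2 0.29, TARS2 0.26, IARS2 0.23, EARS2 0.18 and YARS2 0.16. The calls of YARS2, QARS and EPRS were lost in 14, 10 and 7 of 19 alternative settings.

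The level with 10 μM Enz differed between 24 h and 4 h by the direct test (edgeR) for 14 genes. It was higher at 24 h, in log2 units, for SARS by 0.35, WARS by 0.35, IARS by 0.28, GARS by 0.22, MARS by 0.20, NARS by 0.17, AARS by 0.15, LARS by 0.14, EPRS by 0.12 and YARS by 0.10, the last a call lost in 14 of 16 alternative settings. The differences of FARSB (-0.27), CARS2 (-0.25), KARS (-0.20) and VARS (-0.14) were negative. The calls of EPRS, VARS, LARS, NARS and CARS2 were lost in 3, 3, 2, 1 and 1 settings. The times carry different header prefixes, so time and prefix cannot be told apart in this direct test. Taken from the vehicle column of each prefix, all 14 differences kept their sign, with FARSB at -0.14.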

How the results depend on the processing

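Counts of called synthetase genes stayed within 1.5 times the reported value in most settings. Exceptions were 4 h of Enz, where leaving out single libraries gave 9 to 15 calls (15 reported), Enz 24 h against 4 h (9 to 15, with 14 reported), 4 h of DHT (0 to 4 with libraries left out and 5 without the filter on low counts, against 2), and Enz in siGATA2 cells (1 call with a pseudocount of 1, without the filter or with median centring, against 0). All calls kept their direction. In every setting tried, 18 of 23 calls were kept for 24 h of Enz, 9 of 15 for 4 h, 17 of 23 for 24 h of DHT, 28 of 30 for Enz in siControl cells and 20 of 23 for the interaction. Within header prefixes, 0 of 118 called and 28 of 141 uncalled values of the ligand comparisons changed sign. The values within prefixes use the libraries of the main test, so the kept signs are no independent check. Of GARS and KARS, which were followed in every setting, these uncalled values near 0 reversed: KARS at 4 h of Enz (-0.000686 to 0.0214 with libraries left out), GARS at 4 h of DHT (-0.0691 to 0.00978), KARS at 4 h of DHT (-0.0118 with library size alone), and KARS for Enz against DHT at 4 h (-0.00209 with RLE size factors, -0.00188 without the filter, -0.00242 with DESeq2, and -0.00684 to 0.0131 with libraries left out). The cause was not tested. Replicate numbers did not pair the samples: correlations of same-numbered deviations were -0.137 to 0.105 in the ligand and -0.0714 to 0.0647 in the siRNA experiment, and a siRNA library correlated best with its own number in 12 of 36 cases. With the replicate block, calls numbered 12 for 4 h of Enz, 22 for 24 h, 22 for 24 h of DHT, 30 for Enz in siControl cells and 21 for the interaction. With n = 2 and low-count genes such as RARS2, small changes are near the limit of the ligand experiment.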
